A study of Mus musculus with 7 samples.

Results

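The genes described here carry newly made proteins into the endoplasmic reticulum (ER) and move them between the ER and the Golgi. They are 46 genes listed by symbol in 5 groups: 15 of the translocon and signal recognition particle (SRP), 5 of signal peptidase, 10 of the COPII coat, 6 of the COPI coat and 10 cargo receptors. All 46 were among the 19649 genes of the deposited count table. A total of 45 passed the filter on low values (10 normalized counts or more in no fewer than 3 libraries) and were tested among 16047 genes. Kdelr3, a KDEL receptor gene, did not pass it, with between 3.33 and 12.1 normalized counts over the 7 libraries.

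RNA was sequenced from mouse long-term haematopoietic stem cells, sorted without lineage markers and CD48 and with Kit, Sca-1 and CD150. The wild-type group (4 libraries) had the genotype Calr +/+ MxCre. The mutant group (3 libraries) had Calr fl/fl (Calr del52/del52) with MxCre, a knock-in allele of Calr, which encodes the ER chaperone calreticulin. MxCre is a Cre recombinase under an interferon-responsive promoter and acts in many cell types, so recombination was not limited to stem cells. Mice of both genotypes were given pI:pC, an inducer of interferon, and cells were sorted 14 days after induction began. Interferon induction and Cre were thus shared by the groups. Nothing in the labels ties libraries to separate animals, and p-values therefore measure only the spread between these libraries, which may be technical. In bulk RNA, fewer cells of a type and less RNA per cell cannot be told apart.

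Proteins with a signal peptide are met at the ribosome by the SRP, handed to the SRP receptor and threaded through the Sec61 channel, where signal peptidase removes the signal peptide. Cargo then leaves the ER in vesicles coated with COPII, assembled by the small GTPase Sar1 from Sec23, Sec24, Sec13 and Sec31. COPI-coated vesicles return ER residents and receptors from the Golgi, and KDEL receptors retrieve soluble chaperones such as calreticulin, whose normal C-terminus ends in a KDEL sequence. Calr mutations of this class replace that C-terminus and are known from myeloproliferative neoplasms.

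Libraries held between 21325340 and 28710304 reads. The libraries wild-type 3 and wild-type 4 stood apart from the other 5. Their log2 values were higher by 0.24 for each doubling of a gene's exonic length, against slopes of -0.18 to 0.01 in the other libraries. Their titles also carry a number series shared with mutant 1 and mutant 2 (series A), whereas wild-type 1, wild-type 2 and mutant 3 have other numbers (series B). No source used here says that the series is a batch. Calr itself had 16783 ± 1259 normalized counts in wild-type (SD, n = 4) and 15093 ± 767 in mutant (SD, n = 3), with an exact two-sided permutation p of 0.0857 over 35 splits. A gene-level count does not show the del52 allele and so checks no label. All 8 stem cell markers were in the table, with sums of 37694 to 78158 in wild-type and 36658 to 44747 in mutant libraries. These markers did not move together. Kit was at 26511 and 25305 in wild-type 3 and 4 and at 2976 to 6677 elsewhere. Ly6a, which encodes Sca-1, was at 2323 and 2407 in those libraries and at 4207 to 6363 elsewhere. The log2 differences, mutant minus wild-type, were 0.49 for Ly6a, 0.43 for Slamf1 and 0.48 for Procr. Those of the other stem cell markers were negative. Among 10 neutrophil and monocyte markers, all in the table, the sum was 41019 to 81473 in wild-type and 10266 to 45642 in mutant libraries. The highest mutant sum was that of mutant 1. S100a8, for example, had 9716 normalized counts in mutant 1, 1178 in mutant 2 and 1297 in mutant 3. Prtn3 and Csf1r went the other way, with log2 differences of 0.55 and 0.39. The mast cell, basophil and eosinophil markers summed to 283 to 473 in wild-type and 98.2 to 231 in mutant libraries, and megakaryocyte markers to 8953 to 20590 and 6422 to 12875. Erythroid markers summed to 1007 to 3211 and 1464 to 2406. Of the plasma cell and B cell markers, 5 of 8 were in the table, with sums of 391 to 516 and 314 to 451. Of T and NK cell markers, 2 of 6 were in the table, with sums of 816 to 2427 and 1130 to 1631. Ear2 and Mcpt8 were each at 0 in 2 of the mutant libraries. The part of these cell types in the results below was not tested.

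Mutant and wild-type libraries did not overlap for 4 of the 45 tested members, and in each case every mutant library was higher: Mcfd2, Tmed2, Spcs2 and Srp72. Among all 16047 genes, 5.23% were higher in every mutant library and 4.34% lower in every one, and 0 members were lower in every one. No member passed an adjusted p of 0.05 (limma with Benjamini-Hochberg adjustment over all genes), and 0% of all genes did. The smallest adjusted p was 0.538, both for members and for all genes. At an unadjusted limma p under 0.05 there were 3 members, Mcfd2, Spcs2 and Tmed2, against 8.51% of all genes. edgeR on the recovered reads called 0 genes, and DESeq2 called 0.667% of genes (0.293% higher and 0.374% lower) and 0 members.

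RefSeq promoter entries (GRCm38.p6) were matched for 36 of the 46 genes. The stretches of 100 bases before the RefSeq start of Srp72, Spcs2 and Mcfd2 are shown because these genes were higher in every mutant library. All letters are in lower case because none of the motifs searched was found there, and each is written 5′ to 3′ on the strand of the gene. They lie at chr5:76974601-76974700 (plus strand), chr7:99858884-99858983 (minus strand) and chr17:87265948-87266047 (minus strand). RefSeq starts can differ from the GENCODE gene spans given below: the Spcs2 stretch lies inside its GENCODE span, which holds transcripts that start farther upstream, and the end of the Srp72 stretch overlaps its span.
Srp72: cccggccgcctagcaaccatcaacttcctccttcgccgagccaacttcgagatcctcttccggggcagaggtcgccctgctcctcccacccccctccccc
Spcs2: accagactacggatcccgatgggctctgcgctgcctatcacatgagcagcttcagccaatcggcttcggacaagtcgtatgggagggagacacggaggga
Mcfd2: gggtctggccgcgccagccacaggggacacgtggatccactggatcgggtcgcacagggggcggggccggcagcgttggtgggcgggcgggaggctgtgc
The GC content of these stretches was 68% for Srp72, 59% for Spcs2 and 76% for Mcfd2.

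Promoters of 300 bases (250 before the start and 50 after) were searched on both strands for 3 motifs bound by factors of the unfolded protein response. The ERSE (CCAAT and CCACG with 9 bases between them) was in 0 of 38 member promoters and in 0.119% of all 32851, and the ERSE-II (ATTGG, any base, CCACG) in 0 and in 0.0365%. The UPRE core (TGACGTGG) was in 5 of the 38, or 13.2%, and in 0.676% of all promoters. It shares only the letters CCACG with the other motifs, on its reverse strand. The 5 genes were Sec24d, Copb1, Copb2, Sec23a and Kdelr3, and the windows of 4 of them are shown with the motif in capitals, as the only shared sequence found. The windows lie at chr3:123267436-123267495 (plus strand), chr7:114254681-114254740 (minus strand), chr9:98563672-98563731 (plus strand) and chr15:79516348-79516407 (plus strand).
Sec24d: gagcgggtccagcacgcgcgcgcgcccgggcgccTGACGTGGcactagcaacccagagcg
Copb1: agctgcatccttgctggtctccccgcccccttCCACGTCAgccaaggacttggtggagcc
Copb2: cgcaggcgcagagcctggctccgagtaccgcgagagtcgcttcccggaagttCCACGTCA
Kdelr3: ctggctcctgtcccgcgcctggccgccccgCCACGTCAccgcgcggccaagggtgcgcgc
A match describes the letters and is not evidence of binding. The genes that carry it did not pass the test: the log2 difference, mutant minus wild-type, was -0.60 for Sec24d, -0.13 for Copb1, -0.12 for Copb2 and -0.18 for Sec23a, and Kdelr3 was not tested. Without wild-type 3 and 4 the signs of Copb1 and Sec23a (0.28) reversed, and those of Sec24d and Copb2 stayed negative.

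Mcfd2, the calcium-binding partner of the cargo receptor Lman1 in the export of coagulation factors, gave the smallest p of the members. It lies at chr17:87254443-87265935 (GRCm38, minus strand). Wild-type libraries 1 to 4 had 3719, 3703, 3240 and 3310 normalized counts, and mutant libraries 1 to 3 had 4846, 4481 and 4710. Every mutant library lay above every wild-type library, and the gap was wider than the spread within each group. On the log2 scale the difference was 0.42 (SE 0.15, 95% interval 0.09 to 0.76), with a limma p of 0.0187 and an adjusted p of 0.538. It was 0.33 with wild-type 3 and 4 left out and 0.51 with wild-type 1 and 2 left out. Within series A it was 0.51 (limma adjusted p 0.0201), where 37.5% of all genes passed, and within series B it was 0.34. In series B the only mutant library is mutant 3, whose spread is taken to equal that of wild-type 1 and 2. Only the sizes of differences are therefore given for series B, for this and all other members.

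Lman1 encodes the lectin that carries these cargoes with Mcfd2. Its normalized counts were 2802, 2753, 3770 and 3270 in wild-type and 2857, 3036 and 2943 in mutant libraries. The groups overlapped, and the log2 difference was -0.08 (95% interval -0.47 to 0.30, limma adjusted p 0.797). The ratio of Mcfd2 to Lman1 normalized counts, a pair picked out after its values were seen, was 1.33, 1.34, 0.859 and 1.01 in wild-type and 1.70, 1.48 and 1.60 in mutant libraries. On normalized counts it was the only 1 of 9 pairs of partners or paralogues compared whose groups did not overlap. It is given without a test. By FPKM, a level per length and library size, the ratios of the groups overlapped. Mutant 3 had an FPKM of 99.8 for Mcfd2 and 56.0 for Lman1, a lower ratio than in wild-type 1, with 75.5 and 39.8. The log2 difference of Lman1 by FPKM, summed over its transcripts, was 0.24. Its tested transcripts differed in direction. Lman1-201, Lman1-207 and Lman1-209 had log2 differences of -0.21, -0.05 and -0.50, and Lman1-202 and Lman1-205 had 1.51 and 1.29. Of these, Lman1-205 and Lman1-207 are not annotated as protein-coding.

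Tmed2 encodes a p24 family protein that sorts cargo, among it GPI-anchored proteins, into vesicles (chr5:124540695-124550506, plus strand). It had 3892, 4333, 3489 and 2902 normalized counts in wild-type libraries and 5042, 4467 and 5582 in mutant libraries. Mutant 2 was close to wild-type 2, and the other mutant libraries were well above all wild-type libraries. The log2 difference was 0.47 (SE 0.19, 95% interval 0.04 to 0.90, limma p 0.0345, adjusted p 0.538). It was 0.29 with wild-type 3 and 4 left out and 0.65 with wild-type 1 and 2 left out. Within series A it was 0.58 (limma adjusted p 0.0195) and within series B 0.44.

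Tmed9, another p24 protein, had the largest log2 difference of all members, 0.9999 (SE 0.49, 95% interval -0.13 to 2.13, limma adjusted p 0.538). Its normalized counts were 7381, 6762, 1859 and 2395 in wild-type and 8324, 6393 and 8656 in mutant libraries. The low values were those of wild-type 3 and 4, and mutant 2 lay below wild-type 1 and 2. Tmed9 had a log2 difference of 0.13 when wild-type 3 and 4 were left out, and 1.87 when wild-type 1 and 2 were. Within series A it was 1.79 (limma adjusted p 0.000347) and within series B 0.29. The other p24 genes, Tmed3 and Tmed10, had log2 differences of 0.35 and 0.30 and overlapping groups. Reads of Tmed10 may be shared with its pseudogene Tmed10-ps, which had 167 to 330 normalized counts.

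The retrieval receptors Kdelr1 and Kdelr2 bind escaped ER proteins by their C-terminal KDEL. Kdelr1 had 2173, 1994, 1210 and 1263 normalized counts in wild-type libraries and 2508, 2003 and 2139 in mutant libraries, a log2 difference of 0.46 (SE 0.25). Kdelr2 had 3783, 3143, 1683 and 1861 in wild-type and 3093, 2710 and 3789 in mutant libraries, a log2 difference of 0.36 (SE 0.31). In both genes the low libraries were wild-type 3 and 4, and the groups overlapped. Without those libraries the log2 difference was 0.08 for Kdelr1 and -0.12 for Kdelr2. Kdelr3 was barely detected, with 9.83, 5.19, 11.7 and 3.33 normalized counts in wild-type libraries and 3.37, 5.36 and 12.1 in mutant libraries. Its exons overlap those of Ddx17 on the other strand, and in these unstranded libraries reads within the shared stretch cannot be told apart. In total 16 members have exons that overlap those of another gene, 15 of them on the other strand. Among these are Spcs1 (with Glt8d1), Sec62 (with 4933429H19Rik) and Surf4 (with Surf2). Surf4, a receptor for soluble cargo, had a log2 difference of -0.01 (95% interval -0.36 to 0.34). Over the 9 tested cargo receptors, 7 log2 differences were positive and the median was 0.36, which was 0.08 without wild-type 3 and 4. Within series A 7 passed, all higher, where 37.5% of all genes passed (16.4% higher and 21.1% lower). In series B, with mutant 3 as the only mutant library, the median of the cargo receptors was 0.29.

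**Figure D1:**
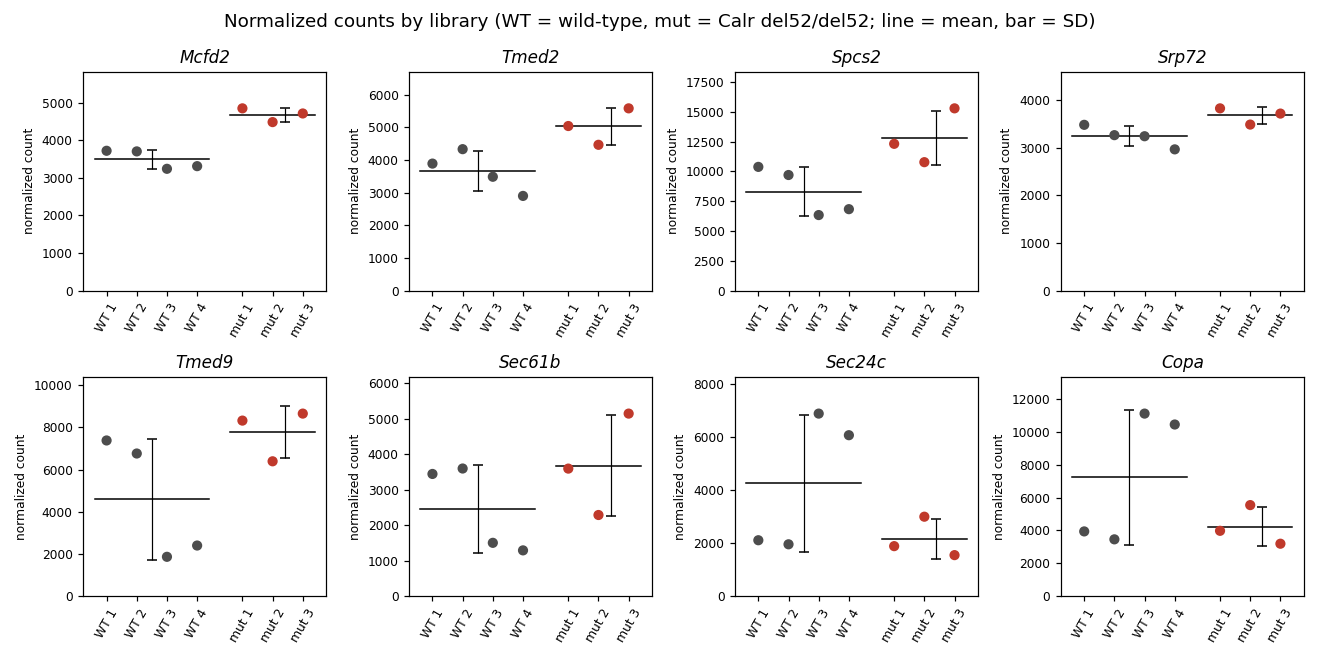
Normalized counts (y axis, linear, from 0) of 8 members in each library (x axis). Points are single libraries, horizontal lines the group means and bars the SD (wild-type n = 4, mutant n = 3). Mcfd2, Tmed2, Spcs2 and Srp72 are higher in every mutant library, while in Tmed9, Sec61b, Sec24c and Copa the wild-type libraries 3 and 4 lie far from wild-type 1 and 2.

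Spcs2 encodes an accessory subunit of the signal peptidase complex (chr7:99837569-99863462, minus strand) and was the most abundant member by FPKM (fragments per length and library size), with 216 ± 52.7 in wild-type and 328 ± 62.9 in mutant libraries (SD, n = 4 and n = 3). Its normalized counts were 10382, 9701, 6344 and 6838 in wild-type and 12315, 10777 and 15289 in mutant libraries. Mutant 2 lay just above wild-type 1, and wild-type 3 and 4 were the lowest. Its log2 difference was 0.64 (SE 0.23, 95% interval 0.11 to 1.17, limma p 0.0241, adjusted p 0.538). It was 0.34 with wild-type 3 and 4 left out and 0.94 with wild-type 1 and 2 left out. It passed within series A, at 0.81 (limma adjusted p 0.00404), where 37.5% of all genes passed. In series B, with mutant 3 as the only mutant library, it was 0.61. The pseudogene Spcs2-ps, which could share reads, had 4.99 to 9.82 normalized counts.

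Spcs1, another accessory subunit, had 5688, 5478, 2457 and 2582 normalized counts in wild-type libraries and 6081, 4145 and 7736 in mutant libraries. Mutant 2 fell between the pairs of wild-type libraries, and the log2 difference of 0.63 (SE 0.37) became 0.05 without wild-type 3 and 4. The catalytic subunit genes Sec11a and Sec11c had log2 differences of 0.58 and 0.44 (SE 0.29 and 0.27), and 0.13 and 0.09 without those libraries. Within series A, where wild-type 3 and 4 are the only wild-type libraries, Spcs1 was 0.995, Sec11c 0.58 and Sec11a 0.90. All passed there (limma adjusted p 0.00488, 0.0281 and 0.00288), as did 37.5% of all genes. In series B, with mutant 3 as the only mutant library, they were 0.47, 0.49 and 0.40. The difference between the series was not tested. Spcs3, which the complex needs for activity, had a log2 difference of 0.0064 (95% interval -0.43 to 0.44), the smallest in size of the members. All 5 signal peptidase differences were positive, with a median of 0.58, against a median of 0.00 and 8034 positive of 16047 over all genes. Without wild-type 3 and 4 all 5 were still positive and their median was 0.13.

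Srp72 encodes a protein of the SRP that binds the SRP RNA (chr5:76974683-76999937, plus strand). Its normalized counts were 3481, 3264, 3242 and 2966 in wild-type and 3827, 3486 and 3717 in mutant libraries. The lowest mutant and the highest wild-type library differed by few counts. The log2 difference was 0.18 (SE 0.15, 95% interval -0.15 to 0.52, limma p 0.239, adjusted p 0.563), so this difference is within its error. Srp68, its binding partner, had a log2 difference of -0.03 (SE 0.15) and overlapping groups.

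Sec61b, the small beta subunit of the channel, had 3439, 3592, 1498 and 1286 normalized counts in wild-type libraries and 3590, 2282 and 5140 in mutant libraries. Srp14, of the SRP Alu domain, had 5270, 5459, 2720 and 2551 in wild-type and 6239, 4166 and 7493 in mutant libraries. In both genes wild-type 3 and 4 were low, mutant 2 was below wild-type 1 and 2, and the groups overlapped. The log2 difference of 0.66 for Sec61b (SE 0.44) was -0.01 without wild-type 3 and 4, and that of 0.62 for Srp14 (SE 0.34) was 0.11. Within series A, where wild-type 3 and 4 are the only wild-type libraries, Sec61b was 1.04 and Srp14 0.95. Both passed there (limma adjusted p 0.00677 and 0.00647), as did 37.5% of all genes. In series B, with mutant 3 as the only mutant library, they were 0.55 and 0.48. Both also passed with the series as a covariate (limma adjusted p 0.0258 for each). They were among 24 members that passed in that setting, where 22.4% of all genes did.

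Sec61a1, the pore-forming subunit, had 5306, 4787, 7798 and 6891 normalized counts in wild-type libraries and 4716, 6348 and 4315 in mutant libraries. Here wild-type 3 and 4 were the highest, opposite to Sec61b and to Sec61g, the gamma subunit. The log2 difference was -0.27 for Sec61a1 and 0.57 for Sec61g, and neither passed (limma adjusted p 0.584 and 0.561). Without wild-type 3 and 4 they were 0.0043 and -0.12. Sec62 and Sec63, which work beside the channel, had log2 differences of 0.55 and 0.12, and 0.28 and 0.13 without those libraries. Sec62 passed within series A, at 0.65 (limma adjusted p 0.0288). In series B, with mutant 3 as the only mutant library, Sec62 was 0.62. The translocon-associated genes Ssr1 to Ssr4 had 0.03, 0.39, 0.02 and 0.55. Srp9 and Srp19 had 0.53 and 0.45, and Srprb, of the SRP receptor, 0.06. Across the group 13 of 15 were positive with a median of 0.39, and without wild-type 3 and 4 8 of 15 were positive with a median of 0.0043.

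In the COPII coat most differences were negative: 2 of 10 were positive and the median was -0.15. Sec24c, a cargo-binding subunit, had 2105, 1952, 6888 and 6072 normalized counts in wild-type libraries and 1882, 2994 and 1543 in mutant libraries. Wild-type 3 and 4 were far above the others, mutant 2 came next, and mutant 1 and 3 were below wild-type 1 and 2. Sec24c had a log2 difference of -0.82 (SE 0.50, limma adjusted p 0.538), which was 0.02 without wild-type 3 and 4. Exons of Sec24c overlap those of 6230400D17Rik on the other strand.

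Sec24d had 637, 573, 1202 and 1355 normalized counts in wild-type libraries and 584, 701 and 470 in mutant libraries, a log2 difference of -0.60 (SE 0.34) that was -0.07 without wild-type 3 and 4. Sec24b and Sec24a had log2 differences of -0.60 and -0.12. By FPKM, which allows levels of different genes to be set side by side, Sec24c made up 49.6% to 65.4% of the summed Sec24 level of a library and Sec24a 3.75% to 11.1%. The ranges of the Sec24c share were 55.9% to 65.4% in wild-type and 49.6% to 58.9% in mutant libraries, which overlap.

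Sec13, of the outer coat and also of the nuclear pore, had 5187, 4924, 2476 and 2452 normalized counts in wild-type libraries and 3722, 3564 and 4775 in mutant libraries. The mutant libraries lay between the pairs of wild-type libraries. The log2 difference was 0.18 (SE 0.32) with all libraries, -0.34 with wild-type 3 and 4 left out and 0.69 with wild-type 1 and 2 left out. Sec31a, its partner, had a log2 difference of -0.45 (SE 0.32), and 0.06 without wild-type 3 and 4. The inner coat genes Sec23a and Sec23b had -0.18 and -0.11. The GTPase genes Sar1a and Sar1b had -0.02 and 0.38, and without wild-type 3 and 4 Sar1b had -0.17. Within series A 2 COPII genes passed as higher and 4 as lower, where 16.4% of all genes passed as higher and 21.1% as lower. In series B, with mutant 3 as the only mutant library, the COPII median was -0.15.

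In the COPI coat 5 of 6 differences were negative and the median was -0.20, which was 0.02 without wild-type 3 and 4. Copa, the alpha subunit of the outer coat, had 3936, 3453, 11119 and 10453 normalized counts in wild-type libraries and 3974, 5541 and 3186 in mutant libraries. Copg1, the gamma subunit, had 4482, 4054, 7778 and 7141 in wild-type and 3965, 5527 and 3563 in mutant libraries. Both genes were highest in wild-type 3 and 4, and mutant 2 was next. The log2 differences were -0.61 for Copa (SE 0.46) and -0.40 for Copg1 (SE 0.28), and 0.16 and 0.0041 without wild-type 3 and 4. Exons of Copa overlap those of Ncstn on the other strand.

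Cope, the epsilon subunit, ran the other way, with 7300, 7954, 4578 and 3909 normalized counts in wild-type libraries and 6789, 6010 and 9349 in mutant libraries. Its low libraries were wild-type 3 and 4, and its log2 difference of 0.35 (SE 0.29) was -0.07 without them. The remaining coat genes Copb1, Copb2 and Arcn1, the delta subunit, had log2 differences of -0.13, -0.12 and -0.28. None of the 6 passed (limma adjusted p 0.544 to 0.727). Within series A 1 passed as higher and 2 as lower, where 16.4% of all genes passed as higher and 21.1% as lower. In series B, with mutant 3 as the only mutant library, the COPI median was -0.22.

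**Figure D2:**
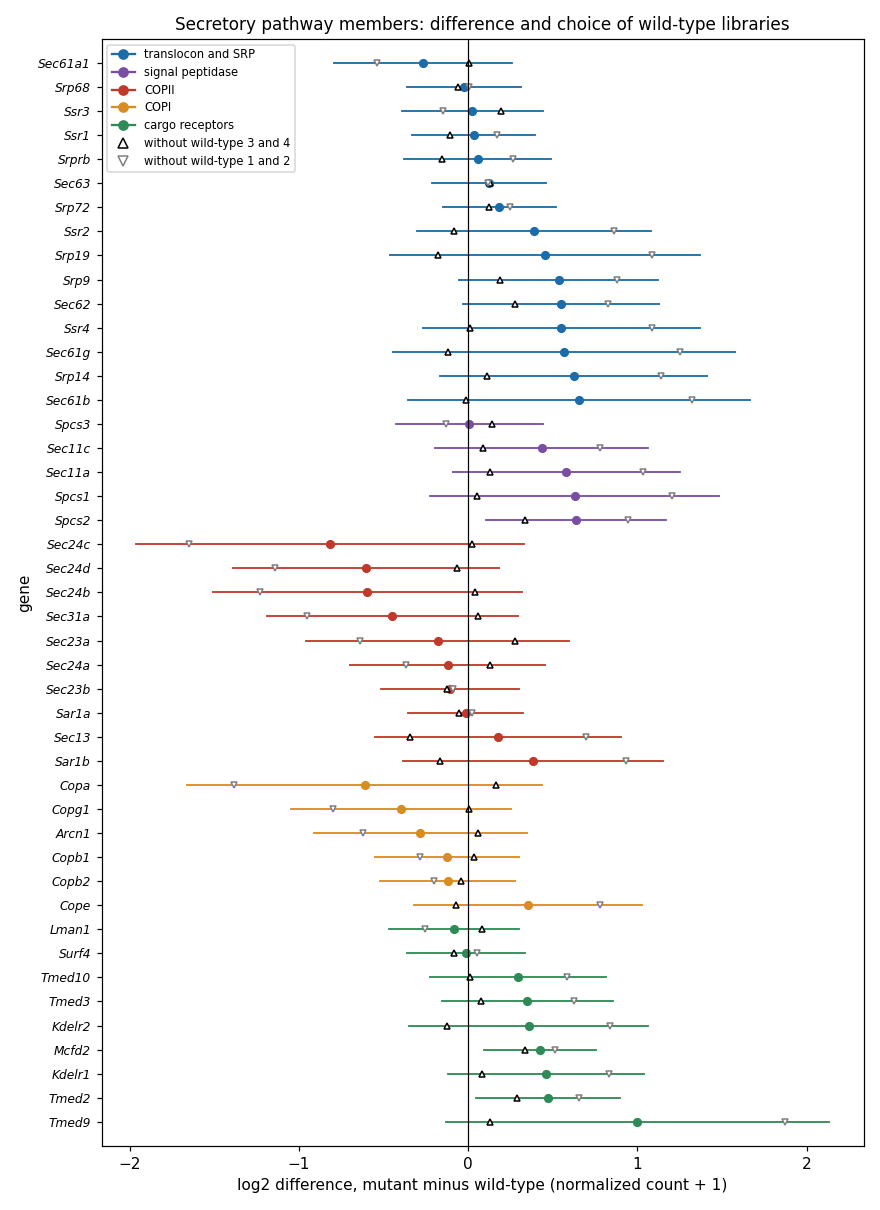
Log2 difference, mutant minus wild-type, of log2(normalized count + 1) (x axis) for the 45 tested members (y axis), coloured by group, with 95% intervals from limma. Upward triangles are differences without wild-type 3 and 4 and downward ones without wild-type 1 and 2. Most intervals include 0, those of Mcfd2, Tmed2 and Spcs2 do not, and the upward triangles lie nearer 0 in most members.

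The groups of members followed wild-type 3 and 4 in opposite directions. Compared with wild-type 1 and 2, both libraries were higher in 15 of 45 members and lower in 27, with 3 mixed. The same count was not made over all genes, so these counts do not set the members apart. Across genes, Pearson r was 0.982 and 0.984 within these pairs of libraries and 0.930 to 0.935 between them. The median log2 difference, wild-type 3 and 4 minus wild-type 1 and 2, was -0.55 for the translocon and SRP group, -0.69 for signal peptidase and -0.55 for cargo receptors. It was 0.71 for COPII and 0.50 for COPI. The mean deviation of the COPII genes from their own mean was 0.32 and 0.30 in wild-type 3 and 4, and -0.26 to 0.03 in the 3 mutant libraries. For signal peptidase it was -0.52 and -0.48 in wild-type 3 and 4, and 0.05 to 0.50 in the mutant libraries.

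**Figure D3:**
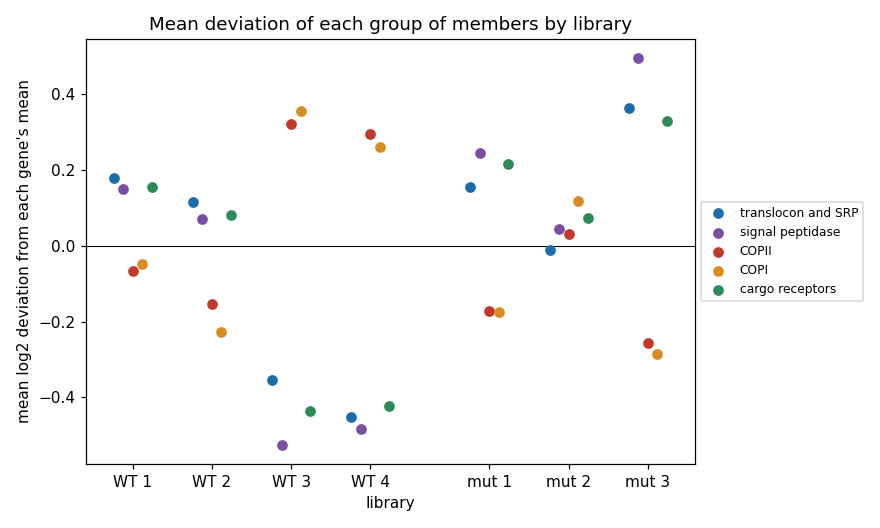
Mean deviation (y axis, log2) of the tested members of each group from each gene's mean over the 7 libraries (x axis). Points are group means in 1 library. In wild-type 3 and 4 the COPII and COPI points lie above 0 and the other 3 groups below, and in mutant 1 and mutant 3 the order is turned.

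The groups also differed in exonic length, with medians of 7889 bases for COPI and 6157 for COPII, and 4172, 4221 and 2837 for the translocon and SRP, signal peptidase and cargo receptors. Members with a positive mutant minus wild-type difference had a median exonic length of 3396 bases and those with a negative one 6325, against 3788 over all genes. Across the 45 members, exonic length had a Spearman rho of 0.72 with the difference between wild-type 3 and 4 and wild-type 1 and 2, and of -0.67 with mutant minus wild-type. Over 15736 genes with a length the first rho was 0.51. These are descriptions across genes that share the same libraries, and genes are not independent replicates. With each library's length slope as a covariate the median over members was 0.02, from 0.18 without it, and 0 members passed, against 0.791% of all genes (0.617% higher and 0.174% lower).

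**Figure D4:**
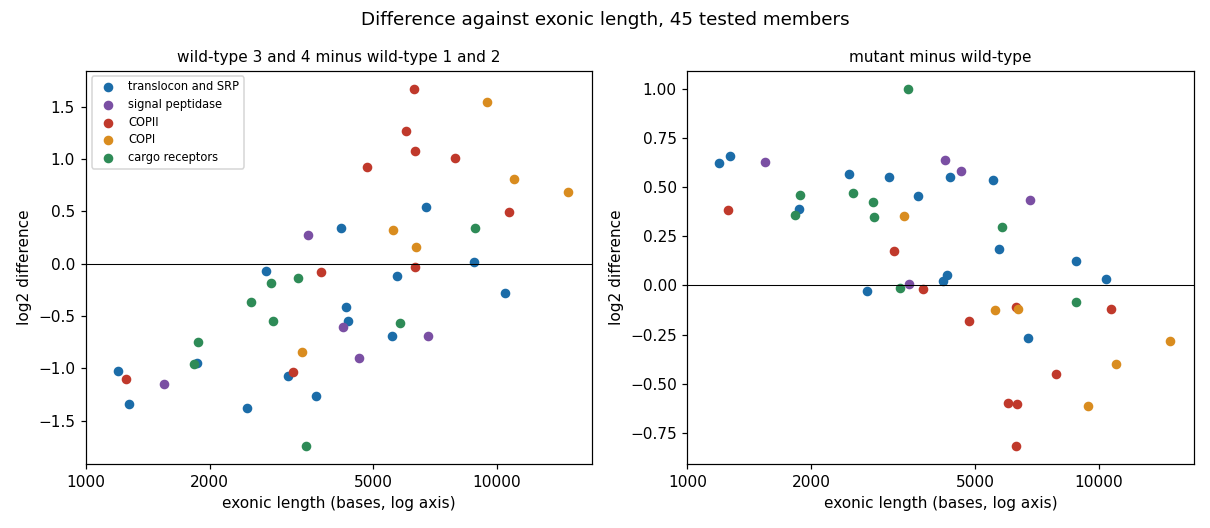
Log2 difference (y axes) against exonic length in bases (x axes, log scale) for the 45 tested members, coloured by group. On the left wild-type 3 and 4 minus wild-type 1 and 2 goes up with length (rho 0.72), and on the right mutant minus wild-type goes down with length (rho -0.67).

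The calls depended on which wild-type libraries were used. Without wild-type 1 and 2, 30 members passed (22 higher and 8 lower), where 42.6% of all genes passed (19.7% higher and 22.8% lower). Without wild-type 3 and 4, 0 members passed, where 0.318% of all genes did (0.237% higher and 0.081% lower). With the title series as a covariate 24 members passed (18 higher and 6 lower), against 22.4% of all genes (9.96% higher and 12.5% lower). Within series A 28 passed (22 higher and 6 lower), against 37.5% (16.4% higher and 21.1% lower). In series B mutant 3 is the only mutant library, so calls there are not given. The log2 differences of members in series B ranged from -0.39 to 0.62. Groups that did not overlap numbered 26 higher and 12 lower without wild-type 1 and 2 (background 33.8% each way), and 5 higher and 2 lower without wild-type 3 and 4 (background 13.9% and 12.4%). Without mutant 2 they numbered 12 higher and 6 lower (background 15% and 14.4%). Over the reported setting and 18 alternatives on the count table, 18 members kept the sign of their log2 difference, 16 positive and 2 negative (Sec24d and Copb2). The share of all genes that did so was not counted, and the settings reuse the same libraries. Some came near 0, such as Tmed10 at 0.0022 and Copb2 at -0.0040. By FPKM, 1 of the 18 members, Sec63, had the opposite sign (-0.0034). Among the 18, Mcfd2 ranged from 0.33 to 0.51, Tmed2 from 0.28 to 0.65, Spcs2 from 0.33 to 0.94 and Tmed9 from 0.13 to 1.87.

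By FPKM, the most abundant members after Spcs2 were Spcs1, Srp14, Sec11c and Sec61b, with means over all 7 libraries of 261, 241, 234 and 202. These leading members differed from their neighbours in this order by less than the spread between libraries. The least abundant were Sec24a at 3.61, Sec24d at 7.99 and Sec23a at 8.78.

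**Figure D5:**
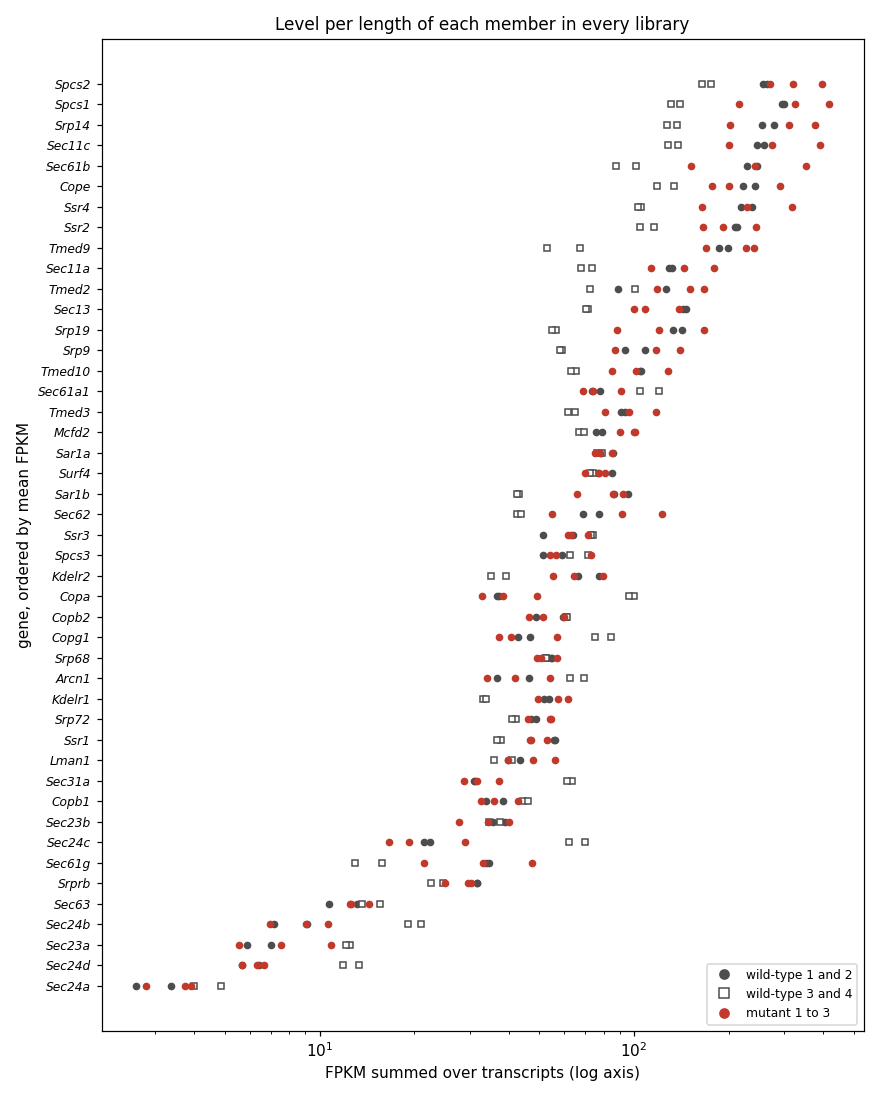
FPKM summed over the transcripts of each gene (x axis, log scale) for the 45 members with values (y axis, ordered by mean), with a point per library. Spcs2 is at the top and Sec24a at the bottom. The open squares, wild-type 3 and 4, lie to the left in many abundant members and to the right in Copa, Copg1 and Sec24c.

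At the level of transcripts, 284 transcripts of the members were listed and 142, from 45 genes, were tested on log2(FPKM + 1). None passed, as for all 30156 transcripts (0%), and 8 had an unadjusted limma p under 0.05, against 6.89% of all. A total of 9 were higher in every mutant library and 0 lower, against 4.27% and 3.82% of all transcripts. Mcfd2-201 had FPKM of 37.5, 36.6, 26.5 and 24.8 in wild-type and 47.9, 37.7 and 52.1 in mutant libraries. Spcs2-207 had 177, 166, 127 and 138 in wild-type and 202, 189 and 268 in mutant libraries. Spcs1-204 had 2.08, 4.34, 0.905 and 0.688 in wild-type and 6.48, 5.48 and 5.99 in mutant libraries. Of these 3 the margin was narrowest in Mcfd2-201, where mutant 2 and wild-type 1 nearly met, and Spcs1-204 was a minor transcript of its gene. The other 6 were Sec63-201, Ssr2-201, Tmed2-203, Sec31a-210, Spcs2-210 and Sar1a-209, and the smallest adjusted limma p of any member's transcript was 0.661.

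A further list held 73 gene symbols of ER insertion, COPI and COPII transport, some being older and newer names of the same gene. Of these, 66 were tested and 0 passed, against 0% of all genes. Their median log2 difference was 0.09, with 37 positive and 29 negative. Groups did not overlap for 4 that were higher (Emc9, Copz2, Tmed4 and Tfg) and 3 that were lower (Sec22c, Tram2 and Gbf1), beside the backgrounds of 5.23% and 4.34%. Emc9, of the ER membrane complex that inserts proteins, had 176, 115, 138 and 163 normalized counts in wild-type libraries and 237, 251 and 348 in mutant libraries. Sec22c, of a family of ER to Golgi SNARE-like proteins, had 334, 348, 353 and 353 in wild-type and 201, 274 and 225 in mutant libraries. For neither gene did wild-type 3 and 4 stand apart. The log2 difference of Emc9 was 0.90 (SE 0.25, limma p 0.00636, adjusted p 0.538), with 0.94 with wild-type 3 and 4 left out and 0.87 with wild-type 1 and 2 left out. That of Sec22c was -0.58 (SE 0.19, limma p 0.016, adjusted p 0.538), with -0.56 and -0.61. Gbf1 and Tram2, of the Arf activation and translocation steps, were -0.57 each and became -0.11 each without wild-type 3 and 4.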

How the data were processed

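RNA was isolated, amplified with SMART-Seq v4 and sequenced unstranded, per the labels' protocols. The submitters' processing notes name GRCm38 and, in no stated role, STAR 2.7.3a, HTSeq 0.6.1, DESeq2 1.12.4, Cufflinks 2.2.1 and FastQC 0.11.7. Tool options were not given in the sources used here. Normalized counts per gene, a signal scaled per library, form the first table deposited by the authors. In each library 100% of values were whole multiples of 1 step within 0.01 reads, so reads were recovered. Count tests on them called 0 genes (edgeR 4.0.16 quasi-likelihood) and 107 genes (DESeq2 1.42.0). The second table deposited by the authors gave FPKM for 66660 transcripts.

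Genes with 10 or more normalized counts in 3 or more libraries were tested with limma 3.58.1 (R 4.3.3, variance trend, two-sided) on log2(normalized count + 1), mutant against wild-type, without covariates. P-values were adjusted by Benjamini-Hochberg over all genes, with a threshold of 0.05. A fold change on this scale is slightly understated for low genes. Transcripts needed 1 FPKM or more in 3 or more libraries and were tested on log2(FPKM + 1). Positions and exonic lengths came from GENCODE vM21 (GRCm38), which matched 19193 genes (97.7%). The scripts were tested on simulated data.

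Members and lists were chosen with earlier results of these data known. Values in every library are given for members whose groups do not overlap, for the 2 largest differences and the highest FPKM in each group, and for families and partners of these. The settings within each title series, and the counts of members whose groups do not overlap under each setting, were added after seeing the data. Alternatives were another pseudocount, no filter, TMM scaling, edgeR, DESeq2, covariates and left-out libraries. The promoter window of 1 member that holds a motif is not reported here.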

Additional observations from a re-analysis of the deposited data

Results flagged for a closer look

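In 52 groups of 4 wild-type values checked, 2 had a library far from the others, and chance flags about 1 in 20 groups. For Sar1a, a COPII GTPase, wild-type 1 (5469 normalized counts) lay above 4829 to 4903 in the other 3, with a gap of 0.878 of the log2 range. For Copb2, a COPI subunit, wild-type 2 (3865) lay below 4780 to 4826 in the other 3, with a gap of 0.957 of the range.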

How the results depend on the processing

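No paired analysis was possible because the labels give no replicate numbers that the groups share, and the numbers used here follow accession order. With 4 against 3 libraries and wild-type 3 and 4 standing apart, small differences are not detectable. Large ones were not called either: log2 differences over all genes ran from -4.16 to 4.20, and 0 genes passed. The median SE was 0.26 over members and 0.32 over all genes.

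The cause of the following changes was not tested. DESeq2 called 107 genes. With the length slope 127 genes passed, and the medians were 0.0234 (all members), 0.00924 (translocon and SRP), 0.15 (signal peptidase) and 0.0692 (cargo receptors). Without wild-type 3 and 4, 51 genes and 2 transcripts passed, 2 members were lower without overlap, and these medians were 0.0385, 0.00431, 0.13 and 0.0843. Without wild-type 1 and 2, 6828 genes, 30 members, 36 related genes and 6778 transcripts passed, 26 members were higher and 12 lower without overlap, and medians were 0.83 (translocon and SRP), 0.94 (signal peptidase), -0.51 (COPII), -0.46 (COPI) and 0.63 (cargo receptors). The title covariate gave 3597 genes, 24 members and 19 related genes. Series A gave 6010 genes, 28 members, 32 related genes and a COPII median of -0.45, and series B gave 1022, 6 and 2. Without a filter 3 transcripts passed. Calr by FPKM was -0.13 (exact p 0.0286, the smallest the splits allow).

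Signs reversed as follows. With FPKM: Sec63 -0.00344, Spcs3 -0.00512, Lman1 0.24. With TMM: Spcs3 -0.00925. With the title covariate: Ssr3 -0.0195, Spcs3 -0.0394, Surf4 0.00330. In series A: Ssr3 -0.0968, Srp68 0.0572, Spcs3 -0.0353, Sar1a 0.0544, Surf4 0.0399. In series B: Ssr1 -0.0470, Srprb -0.0782, Spcs3 -0.0457, Sec24a 0.35, Sec13 -0.0818, Lman1 0.0837. Without wild-type 1 and 2: Ssr3 -0.15, Srp68 0.00757, Spcs3 -0.13, Sar1a 0.0251, Surf4 0.0548. Without wild-type 3 and 4: Sec61a1 0.00431, Sec61b -0.0147, Sec61g -0.12, Ssr1 -0.11, Ssr2 -0.0830, Srp19 -0.18, Srprb -0.15, Sec23a 0.28, Sec24a 0.13, Sec24b 0.0385, Sec24c 0.0207, Sec13 -0.34, Sec31a 0.0559, Sar1b -0.17, Copa 0.16, Copb1 0.0352, Cope -0.0713, Copg1 0.00405, Arcn1 0.0585, Kdelr2 -0.12, Lman1 0.0843. With the length slope: Sec61a1 0.0234, Sec61b -0.0298, Sec61g -0.11, Ssr1 -0.0819, Ssr2 -0.0545, Srp19 -0.17, Srprb -0.11, Sec23a 0.31, Sec24a 0.0216, Sec24b 0.00414, Sec13 -0.29, Sec31a 0.0386, Sar1b -0.13, Copa 0.12, Copb1 0.0600, Cope -0.0650, Copg1 0.00880, Arcn1 0.0841, Kdelr2 -0.0891, Lman1 0.0613.

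Leaving out 1 library at a time gave 0 to 1 called transcripts, 4 to 12 members higher and 0 to 6 lower without overlap. The same settings gave 6.26% to 15% of all genes higher and 5.13% to 14.4% lower, and both largest counts and shares came without mutant 2. The ranges of the members that reversed were Ssr1 -0.0277 to 0.0959, Ssr3 -0.0896 to 0.0884, Srp68 -0.10 to 0.0236, Srprb -0.0376 to 0.14, Spcs3 -0.14 to 0.10, Sec23a -0.43 to 0.0461, Sec23b -0.25 to 0.0317, Sec24a -0.26 to 0.0509, Sar1a -0.0838 to 0.0269, Lman1 -0.15 to 0.00586, Surf4 -0.0710 to 0.0593.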
